A study of Mus musculus with 39 samples.

Results

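Spp1 and Igf1, genes of secreted factors, were followed through RNA-seq of microglia from wildtype (WT) and 5XFAD mice after chronic intermittent hypoxia (CIH) or normoxia (NX). They are 2 of the 46333 rows of the female count table and 2 of the 54532 rows of the male one, matched by gene symbol. The pair was selected on measured values of these data, namely their higher counts in 5XFAD libraries and the Spp1 count of a single WT library, so genotype differences of both genes are given below as a description, with no test. Microglia had been taken from the cerebrum with magnetic beads against CD11b, a surface integrin that other myeloid cells also carry. Females were studied at 10 months and males at 8 months, and treatment had begun at 4 months. CIH mice breathed 6.5% O2 alternating with 21% O2 at 90-s intervals for 8 h per day according to the labels, and NX mice breathed 21% O2. The study's methods give a slightly lower oxygen level and a longer daily period. 5XFAD mice carry human familial Alzheimer's disease transgenes driven by the neuronal Thy1 promoter and develop amyloid plaques, and WT mice lack them. There were 5 libraries per group, except 4 in WT NX females (19 female and 20 male libraries), and library names give sex, genotype (WT or 5X), treatment (NX, or IH for CIH) and number. Sex goes with age and treatment time here, so a difference between the sexes cannot be told apart from either.

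Spp1 encodes osteopontin, a phosphorylated glycoprotein that signals through integrins and CD44 and is made by macrophages, by bone cells and by microglia close to plaques or injury. Igf1 encodes insulin-like growth factor 1, which acts on the receptor IGF1R and is held in the extracellular fluid by IGF binding proteins. Both are members of the disease-associated microglia (DAM) programme, the state that microglia take up around amyloid. Their counts are reads of RNA from bulk cells, in which fewer cells of a kind and less RNA per cell cannot be told apart.

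Spp1 (ENSMUSG00000029304) lies on the plus strand of chromosome 5 at 104435118 to 104441050 of GRCm38, a span of 5933 bases with 7 annotated transcripts of up to 8 exons. Igf1 (ENSMUSG00000020053) lies on the plus strand of chromosome 10 at 87858265 to 87937042 and spans 78778 bases, with 8 transcripts of up to 5 exons. The 250 bases before a RefSeq start of each gene (GRCm38.p6) are shown because both genes were higher in 5XFAD libraries. Capitals mark the letters found in a search on both strands. The search was for the hypoxia response element cores ACGTG and GCGTG and for a loose AP-1 pattern, TGANTCA, in which N is any base. It also covered the E-boxes CACGTG (which contains ACGTG) and CATGTG, and the PU.1 core GAGGAA.
Spp1 (chr5:104434861-104435110, plus strand): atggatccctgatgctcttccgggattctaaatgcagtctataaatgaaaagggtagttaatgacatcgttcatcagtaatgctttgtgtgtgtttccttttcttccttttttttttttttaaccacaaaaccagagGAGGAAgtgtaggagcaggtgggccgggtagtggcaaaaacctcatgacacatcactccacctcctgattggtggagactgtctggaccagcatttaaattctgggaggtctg
Igf1 (chr10:87860861-87861110, plus strand): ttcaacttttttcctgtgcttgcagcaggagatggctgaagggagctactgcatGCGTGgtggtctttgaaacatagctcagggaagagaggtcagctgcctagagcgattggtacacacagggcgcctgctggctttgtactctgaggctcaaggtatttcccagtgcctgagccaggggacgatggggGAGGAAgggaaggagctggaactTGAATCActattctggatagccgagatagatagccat
The Spp1 window held GAGGAA 113 bases before the start and none of the other letters, and the same length before a second RefSeq start of Spp1, not shown, held none of the 6 motifs. The Igf1 window, which lies within the annotated gene span, held GCGTG 196, GAGGAA 60 and TGAATCA (a match to TGANTCA) 37 bases before the start. Of the 32817 RefSeq promoters of this length, 23.25% held GAGGAA, 28.14% GCGTG, 6.75% TGANTCA, 16.57% ACGTG, 6.02% CACGTG and 12.26% CATGTG. These matches are letters in a window and were not tested for binding.

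Depth ranged from 14731683 to 25906121 gene counts among females, with F WT NX 1 the deepest, and from 13457293 to 23095627 among males. Levels are counts scaled to a common library size (CPM) after TMM scaling within each table. The 9 microglia markers (Cx3cr1, P2ry12, Tmem119 and others) summed to between 22769.6 and 35277.8 CPM per library. Libraries that stood apart were F 5X NX 4 and F WT NX 1. In F 5X NX 4 the sum of 14 DAM markers (Spp1 and Igf1 not among them) was 2042 CPM, where the other 9 female 5XFAD libraries lay between 21165 and 41410.0 and the 8 WT females other than F WT NX 1 between 2216 and 3322. F 5X NX 4 was also above those 9 libraries in the sums of isolation response genes (2419 against 686 to 2038 CPM) and of border macrophage (1169 against 497 to 857 CPM), neutrophil, monocyte, dendritic cell, neuron and fibroblast markers. Most of that border macrophage sum was Stab1 (1084 CPM), while Mrc1 (44.6 CPM), Cd163, Cbr2, F13a1 and Ms4a7 were the lowest of 5XFAD NX females. F 5X NX 4 was below the 9 libraries for astrocyte (135 against 223 to 637 CPM), endothelial (50.6 against 122 to 275 CPM), choroid plexus (15.4 against 37.1 to 398 CPM), oligodendrocyte and B cell markers. Gfap was 1.80 CPM there, while Slc1a3, also an astrocyte marker, was the highest of 5XFAD NX females (115 CPM). The part of these in the Spp1 and Igf1 values of F 5X NX 4 was not tested. In F WT NX 1 the DAM sum was 5747 CPM. Results that rest on either library are given with and without it.

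Spp1 was low in WT microglia and high in 5XFAD microglia of both sexes, with an exception in each female genotype. In WT NX females it was 2563 CPM in library 1, 8.00 in 2, 21.7 in 3 and 19.0 in 4. In WT CIH females the 5 libraries held 9.22, 8.73, 6.78, 18.0 and 11.6 CPM. F WT NX 1 thus held 69739 Spp1 counts, and the other 8 WT females 113 to 423. In 5XFAD NX females Spp1 was 2500.3, 825, 396, 10.8 and 2924 CPM in libraries 1 to 5, and in 5XFAD CIH females it was 1347, 467, 2046, 1535 and 1042 CPM. Of the libraries labelled 5XFAD in females only F 5X NX 5 was above F WT NX 1, and F 5X NX 4, at 186 counts, was inside the WT range. Apart from these, the lowest female 5XFAD library (396 CPM) lay far above the highest WT one (21.7 CPM).

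Male values showed no such exceptions. Spp1 was 7.77, 4.41, 6.60, 12.6 and 5.91 CPM in WT NX and 8.57, 7.59, 4.88, 6.58 and 4.99 CPM in WT CIH. It was 819, 689, 1062, 615 and 671 CPM in 5XFAD NX and 1097, 805, 582, 507 and 2465 CPM in 5XFAD CIH. The genotypes did not overlap, and M 5X IH 5 stood well above the next highest male library (1097 CPM).

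Igf1 showed the same split between genotypes. In WT NX females it was 18.7, 3.71, 10.3 and 6.99 CPM, and in WT CIH females 5.75, 3.92, 2.94, 7.15 and 7.32 CPM. In 5XFAD NX females it was 374.6, 413, 193, 3.84 and 369.6 CPM, and in 5XFAD CIH females 356, 271, 247, 298 and 366 CPM. F WT NX 1 had the highest Igf1 of the WT females but lay far under the lowest 5XFAD library other than F 5X NX 4 (193 CPM), and F 5X NX 4 was again at the WT level, with 66 counts. In males Igf1 was 12.7, 10.2, 7.25, 10.5 and 12.3 CPM in WT NX, 7.32, 9.71, 6.16, 5.68 and 7.12 CPM in WT CIH, 307, 354, 318, 280.4 and 274 CPM in 5XFAD NX and 318, 341, 282, 288 and 431 CPM in 5XFAD CIH. The male genotypes did not overlap.

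**Figure D1:**
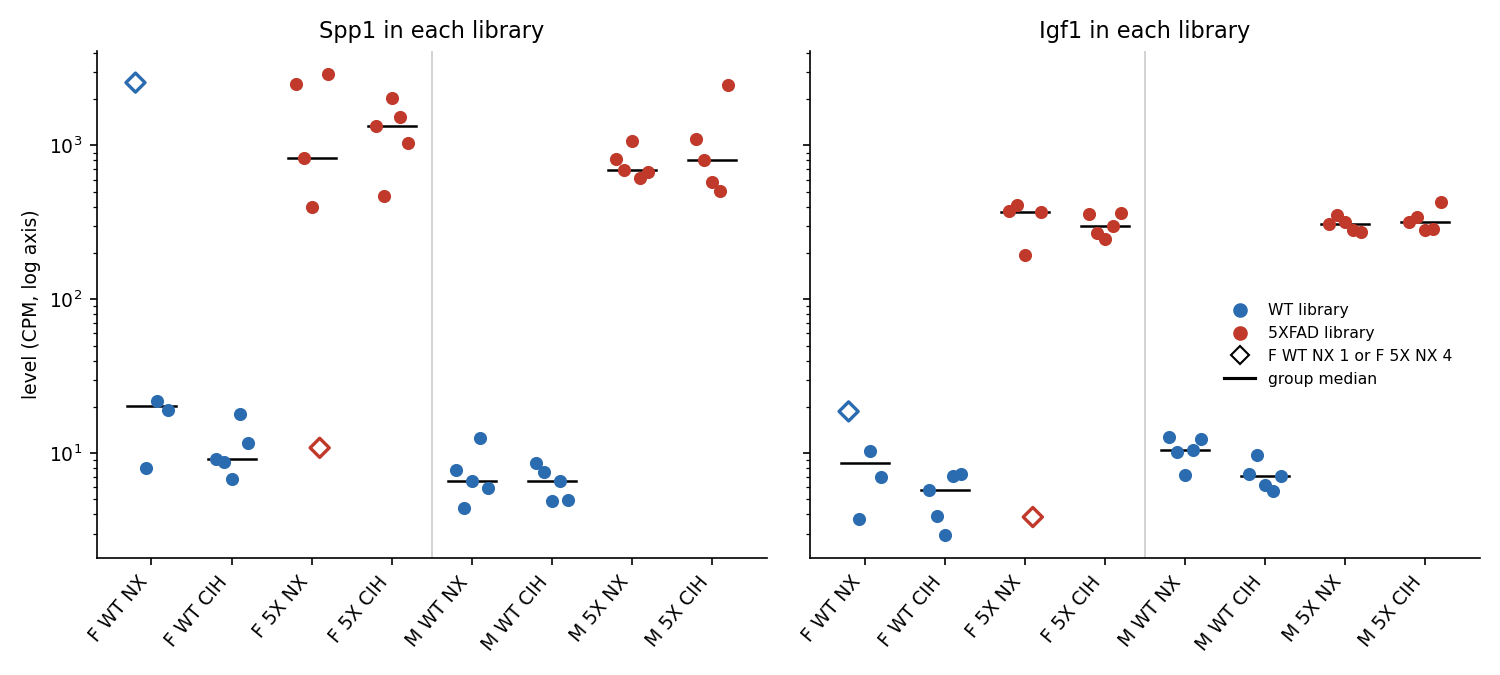
Level of Spp1 (left) and Igf1 (right) in CPM on a log axis, for each library of the 8 groups, with a line at the group median. WT and 5XFAD libraries separate except for F WT NX 1 (2563 CPM of Spp1) and F 5X NX 4 (10.8 CPM of Spp1 and 3.84 CPM of Igf1), drawn as open diamonds.

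The genotype differences come from edgeR fits of each pair of groups and stand as log2FC ± SE (5XFAD minus WT). For Spp1 it was 6.90 ± 0.41 between WT CIH and 5XFAD CIH females, 6.70 ± 0.30 between WT NX and 5XFAD NX males and 7.38 ± 0.46 between WT CIH and 5XFAD CIH males. Between WT NX and 5XFAD NX females it was 1.02 ± 1.72 with all libraries, 6.35 ± 1.59 without F WT NX 1 and 6.66 ± 0.81 without F WT NX 1 and F 5X NX 4. With both libraries kept it was 2.34 with the replicate block and 2.93 and 3.00 in limma with a pseudocount of 1 or 0.1. The Spp1 estimate of this comparison therefore depended on a single WT library. For Igf1 it was 4.75 ± 1.06 in NX females (5.57 ± 0.38 without both libraries), 5.83 ± 0.22 in CIH females, 4.86 ± 0.17 in NX males and 5.53 ± 0.17 in CIH males. Over all genes tested, the median log2FC between WT NX and 5XFAD NX females was -0.02. The comparisons within a sex and treatment share no library with each other, whereas each shares its libraries with the treatment comparisons.

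Within the libraries labelled 5XFAD, Spp1 varied more from library to library than Igf1. The SD of log2 CPM was 1.02 for Spp1 and 0.36 for Igf1 over 9 females (F 5X NX 4 left out), and 0.66 and 0.20 over 10 males. The highest library held 7.39 times the Spp1 of the lowest in these females and 4.86 times in males, against 2.14 and 1.57 times for Igf1. With F 5X NX 4 included, the female SDs were 2.35 and 2.03.

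Per length, in FPKM, Spp1 exceeded Igf1 in every library. It ranked 17th of all genes in F WT NX 1 (1843 FPKM), between 24th and 196th in the other 5XFAD females than F 5X NX 4 and between 45th and 177th in 5XFAD males. The ratio of Spp1 to Igf1 in FPKM was 7.56 to 12.9 in 8 WT females and 8.21 to 39.5 in 9 5XFAD females, which overlap. It was 2.60 to 7.20 in 10 WT males and 10.6 to 34.4 in 10 5XFAD males, which do not. F WT NX 1 stood alone with a ratio of 655. The tables used different gene lengths (1461 bases for Spp1 and 6967 for Igf1 in females, 1648 and 9904 in males), so ratios are not set side by side across the sexes.

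**Figure D2:**
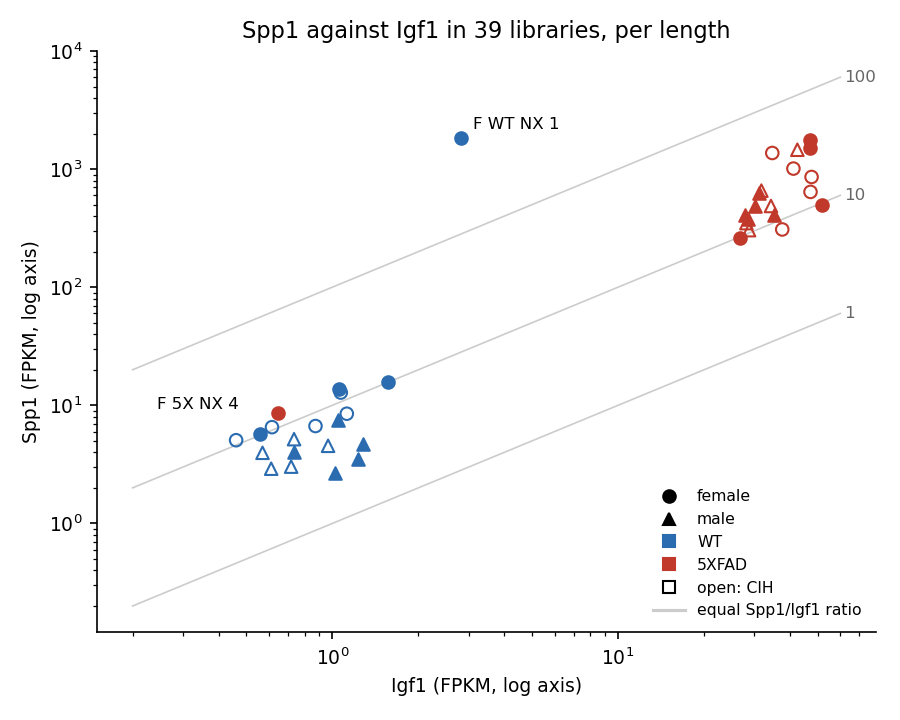
Spp1 against Igf1 in FPKM (both axes logarithmic) for the 39 libraries, with grey lines of equal ratio at 1, 10 and 100. WT libraries lie at the lower left and 5XFAD libraries at the upper right, F 5X NX 4 lies among WT, and F WT NX 1 lies far above the others at a ratio of 655. The female and male FPKM were normalized separately.

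To ask whether CIH changed either gene, CIH was set against NX within each sex and genotype in edgeR's quasi-likelihood test (a call is an FDR below 0.05 with an absolute log2FC above 1). Spp1 in WT females is tested only with F WT NX 1 left out, since its value there helped to select the pair, and neither gene was called in any comparison so tested. In WT females the log2FC of Spp1 (CIH minus NX) was -5.91 ± 1.56 (SE) with F WT NX 1, and -1.91 with the replicate block, -2.29 and -2.36 in limma and -2.39 on the mean of log2 CPM, all given with no test. Without F WT NX 1 it was -0.57 ± 0.33 (edgeR adjusted p = 0.9996), and the exact two-sided permutation test on log2 CPM gave p = 0.321 (adjusted p = 0.816 over 8 tests, smallest possible p = 0.0357). The groups overlapped with or without it. For Igf1 in WT females the log2FC was -0.88 ± 0.41 (edgeR unadjusted p = 0.0521, adjusted p = 0.96), and -0.37 ± 0.34 without F WT NX 1. In this comparison 0% of the 14583 genes were called, with 565 at an unadjusted p below 0.05 and 0 calls by the likelihood ratio test and by DESeq2.

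In 5XFAD females the log2FC was -0.03 ± 0.92 for Spp1 (95% interval -1.83 to 1.77) and 0.20 ± 0.72 for Igf1 (-1.22 to 1.61). Without F 5X NX 4 it was -0.35 ± 0.52 and -0.12 ± 0.19. Here 0% of the 14578 genes were called (470 at an unadjusted p below 0.05, 0 by the other tools). In 5XFAD males the log2FC was 0.49 ± 0.37 for Spp1 (-0.22 to 1.21) and 0.11 ± 0.13 for Igf1 (-0.15 to 0.38), and 0% of 14334 genes were called (473 at an unadjusted p below 0.05, 1 gene by the likelihood ratio test and 1 by DESeq2). Without M 5X IH 5, the library with the highest Spp1, the Spp1 value was -0.02 ± 0.23. On the mean of log2 CPM, where F 5X NX 4 counts as much as each other library, CIH minus NX in 5XFAD females was 1.26 for Spp1 and 1.18 for Igf1 (exact permutation p = 0.556 and 0.651). The intervals in 5XFAD females are wide enough to hold changes of more than 2-fold in either direction for both genes, and those of 5XFAD males are narrower for Igf1.

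In WT males, Igf1 was lower after CIH than in NX by a log2FC of -0.55 ± 0.19 (95% interval -0.93 to -0.18, edgeR adjusted p = 0.0401), below the FDR limit but short of the fold limit, so it was not a call. The groups overlapped at M WT NX 3 (7.25 CPM) and M WT IH 2 (9.71 CPM). The exact permutation test gave p = 0.0238 (adjusted p = 0.19 over 8 tests, smallest possible p = 0.00794). With each library left out in turn the adjusted p of the edgeR test ran from 0.0144 to 0.104, and it was under 0.05 only without M WT NX 3 or M WT IH 2. Spp1 in WT males had a log2FC of -0.19 ± 0.26 (adjusted p = 0.625), and this comparison called 2.51% of 14983 genes. DAM markers moved beside Igf1 there: the sum of the 14 was 2850 to 4808 CPM in WT NX and 2342 to 2460 CPM in WT CIH males, without overlap, with a lower CIH median for 12 of 14. Sums of the 7 neutrophil markers (234 to 1221 against 109 to 320 CPM) and of the 4 monocyte markers (41.0 to 103 against 28.1 to 49.4 CPM) were also lower at the median, for 7 of 7 and 4 of 4 genes. The 4 B cell markers separated without overlap as well (616 to 827 against 407 to 541 CPM, 4 of 4 lower), and CIH medians were lower for 5 of 5 endothelial, 6 of 6 neuron and 7 of 9 microglia markers and 5 of 6 isolation response genes, and higher for 6 of 6 astrocyte markers. Tmem119, a microglia marker, did not overlap (3318 to 3968 against 2213 to 2824 CPM). Their part in the Igf1 value was not tested.

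**Figure D3:**
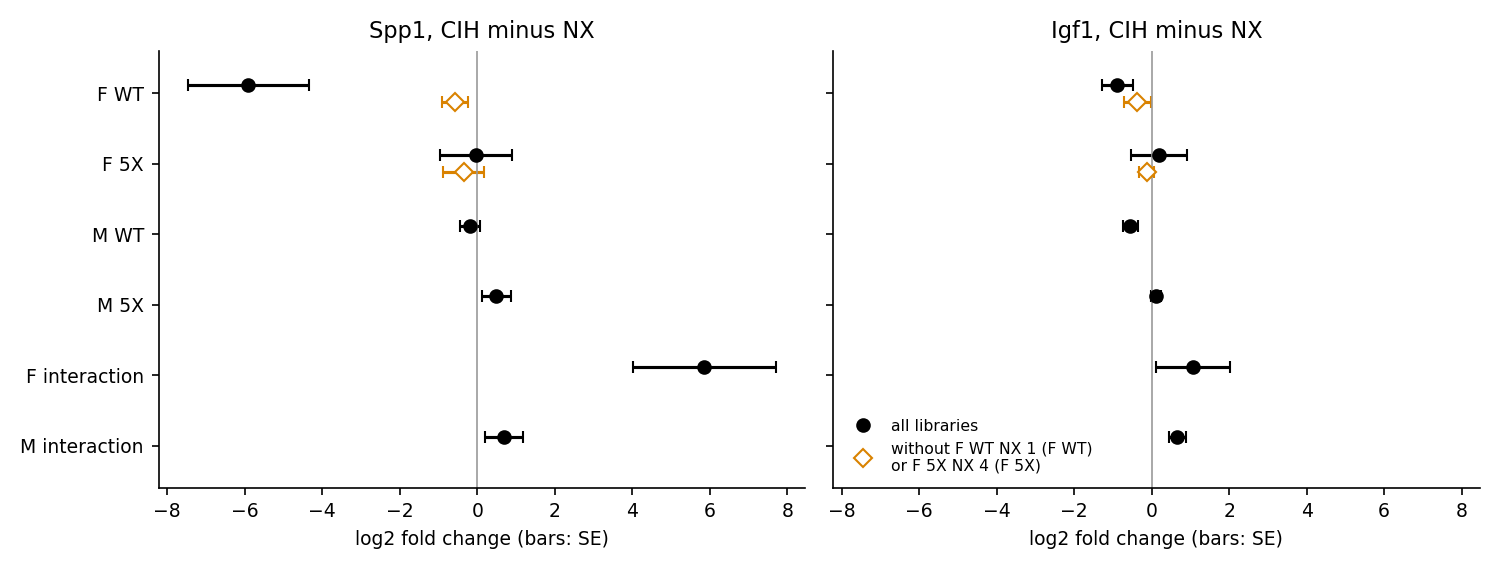
log2FC of Spp1 (left) and Igf1 (right), CIH minus NX, in each sex and genotype, and the genotype by treatment interaction, with SE bars. Orange diamonds leave out F WT NX 1 in WT females or F 5X NX 4 in 5XFAD females. The Spp1 value of WT females moves from -5.91 to -0.57 when F WT NX 1 is left out, and that of the female interaction (5.86) rests on the same library. The remaining values lie closer to 0.

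The interaction of genotype and treatment tests whether CIH acted differently in 5XFAD and WT. In females it was 5.86 ± 1.85 for Spp1 with F WT NX 1 (no test) and 0.53 ± 1.19 without it (edgeR adjusted p = 0.999). For Igf1 it was 1.07 ± 0.95 (adjusted p = 0.952), 0.55 ± 1.00 without F WT NX 1 and 0.77 ± 0.47 without F 5X NX 4. In males it was 0.68 ± 0.49 for Spp1 (adjusted p = 0.384), 0.14 ± 0.36 without M 5X IH 5 and 0.40 ± 0.48 without M WT NX 4. For Igf1 in males it was 0.66 ± 0.22 (adjusted p = 0.121). The male Igf1 value had an adjusted p of 0.0466 in DESeq2 and 0.0727 in the likelihood ratio test. Neither interaction had a call over all genes: 0% of 15582 in females (589 at an unadjusted p below 0.05, 0 by the other tools) and 0% of 15813 in males (3857 at an unadjusted p below 0.05, but 175 calls by the likelihood ratio test and 381 by DESeq2).

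Within a genotype, Spp1 and Igf1 went together across libraries in some sets and not in others. The log2 CPM values of the 8 WT females other than F WT NX 1 had Pearson's r = 0.902 (exact permutation p = 0.00451, adjusted p = 0.00903 over the 2 female sets taken without such libraries) and Spearman's rho = 0.905 (exact permutation p = 0.00456). Without the 2 libraries farthest from the median of Spp1 (F WT NX 3 and F WT NX 4), r was 0.858 (exact permutation p = 0.0153). With F WT NX 1, whose Spp1 helped to select the pair, r was 0.837 over 9 libraries, given with no test. Taken as deviations from the treatment group means, r was 0.792 over all 9, again with no test, and 0.433 without F WT NX 1 and F WT NX 2 (exact permutation p = 0.324). Over the 10 WT males r was 0.271 (permutation p = 0.456, adjusted p = 0.456) and rho 0.358 (permutation p = 0.312).

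In 5XFAD the relation was weaker without the libraries farthest from the median of Spp1. Over 10 females r was 0.934 (permutation p = 0.00865, adjusted p = 0.0115) and rho 0.552 (permutation p = 0.105), but r fell to 0.132 without F 5X NX 4 and F 5X NX 3 (exact permutation p = 0.753). As deviations it was 0.928 (permutation p = 0.00207), and 0.608 without F 5X NX 4 and F 5X NX 5 (exact permutation p = 0.116). Over 10 males r was 0.833 (permutation p = 0.0083, adjusted p = 0.0115) and rho 0.685 (permutation p = 0.0354, adjusted p = 0.0707), with M 5X IH 5 the highest in both genes, and r was 0.519 without M 5X IH 5 and M 5X IH 1 (exact permutation p = 0.192). As deviations from the treatment group means, the males had r = 0.824 (permutation p = 0.00424) and rho = 0.782 (permutation p = 0.0113, adjusted p = 0.0277), and r = 0.499 without M 5X IH 5 and M 5X IH 4 (exact permutation p = 0.202).

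Genes whose log2 CPM followed Spp1 most closely over the 19 female libraries were Rilpl2, Gpnmb, Atp6v0d2, Fxyd5 and Anxa2 (r = 0.986 to 0.983). Gpnmb encodes a lysosomal membrane glycoprotein of DAM and Atp6v0d2 a subunit of the vacuolar proton pump. Igf1 ranked 182nd of 15582 genes in likeness to Spp1 (r = 0.914). Those most like Igf1 in females were Nceh1, Apoe, Myo5a, Rap2b and Rftn1 (r = 0.995 to 0.994). Apoe encodes the lipid carrier apolipoprotein E. Without F WT NX 1 and F 5X NX 4 those closest to Spp1 included Galns, Arhgap24, Coro1c and Gyg and Igf1 ranked 54th (r = 0.982), so the female list for Spp1 depended on those libraries, and the 5 closest to Igf1 were Anxa5, Clec7a, Apoe, Nceh1 and Pea15a. In the 20 male libraries the closest to Spp1 were Treml2, Fam20c, Clec7a, Gusb and Itgax (r = 0.993 to 0.990), with Igf1 8th (r = 0.989), and the closest to Igf1 were Itgax, Cst7, Csf1, Clec7a and Fam20c (r = 0.997 to 0.993). These correlations are descriptive, since all libraries share the genotype split.

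Once each group's mean was taken away, the likeness fell. In males the closest to Spp1 were Gm22753, Gas8, Pomc, Htra3 and Treml2 (r = 0.781 to 0.747) and to Igf1 Spryd7, Gm15682, Gm8210, Gm9791 and Nrg2 (r = 0.784 to 0.733), and Spp1 and Igf1 themselves had r = 0.48. In females, where F WT NX 1 and F 5X NX 4 spread the deviations, the closest to Spp1 were Rilpl2, Gpnmb, Fxyd5, Anxa2 and Ahnak2 (r = 0.972 to 0.963) and to Igf1 Atp6v1c1, Apoe, Nceh1, Rftn1 and Anxa5 (r = 0.987 to 0.982), with r = 0.809 between the pair and 0.595 without both libraries.

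F WT NX 1 was described gene by gene because its Spp1 was that of a 5XFAD library and its Igf1 was not. Of 15582 genes, 255 lay more than 1 log2 unit above the highest of the other 8 WT females there and 28 more than 3, against 0 to 25 and 0 in each of the other WT libraries. More than 1 log2 unit below the lowest of the others lay 29 genes in F WT NX 1 but 240 in F WT IH 1, and 5 to 56 in the rest. Spp1 (9.22 CPM) and Igf1 (5.75 CPM) of F WT IH 1 were within the range of its group, and without it the genotype log2FC in CIH females was 6.84 for Spp1 and 5.84 for Igf1. The 10 with the largest gap, by log2 CPM, were Gpnmb (8.56), Spp1 (6.88), Mmp12 (6.64), Fabp5 (5.47), Atp6v0d2 (5.40), Clec4d (5.13), Ctsk (5.06), Il1rn (4.84), Acod1 (4.53) and Sdc1 (4.29). Igf1 was 315th, with a gap of 0.85. Gpnmb (760 CPM), Spp1, Fabp5, a fatty acid binding protein (92.6 CPM), and Atp6v0d2 (32.6 CPM) were within the range of the 9 5XFAD females other than F 5X NX 4. Mmp12, macrophage elastase, was not: it was 477 CPM in F WT NX 1, 1.91 to 4.71 CPM in the other WT and 4.83 to 15.4 CPM in those 5XFAD libraries. Ctsk, the collagen-degrading cathepsin K of osteoclasts, was 51.9 CPM against at most 1.50 CPM in WT and 0.864 CPM in 5XFAD, and Il1rn, the antagonist of the interleukin-1 receptor, was 71.7 CPM against at most 2.44 and 8.98 CPM. Clec4d, Acod1 and Sdc1 were likewise higher than in every other female library. The 10 genes furthest below the other WT libraries fell short by 1.19 to 2.36 log2 units, among them Gm12411, Rxfp1 and Cd27.

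Of the 14 DAM markers, 13 were above the other WT females in F WT NX 1, and their sum (5747 CPM) was still under the lowest 5XFAD library that did not stand apart (21165 CPM). Apoe, the most abundant of them, was 2689 CPM in F WT NX 1 and had a median of 26623 CPM in 5XFAD NX and 19592 CPM in 5XFAD CIH females. Lgals3, a galectin of the same list, went the other way: it was 205 CPM in F WT NX 1, above every female 5XFAD library (at most 73.7 CPM). Cst7, a cystatin typical of DAM, was 17.3 CPM there, against 7.74 to 14.4 CPM in other WT and a 5XFAD NX median of 2027 CPM. None of the 9 microglia markers was above the other WT females, and 3 were below. Other markers were also above the other WT females in this library: 5 of 7 neutrophil markers (sum 216 against 41.2 to 115 CPM), 3 of 4 monocyte markers (70.9 against 27.6 to 41.8 CPM), 2 of 4 dendritic cell markers (62.2 against 27.5 to 50.7 CPM) and 3 of 8 border macrophage markers (sum 1594 CPM, within 1276 to 1796). The sums of endothelial (125 against at most 122 CPM), mural (43.7 against 43.4 CPM) and T and NK cell markers (3.20 against 3.02 CPM) were just above theirs. Neutrophil markers were also high in F 5X NX 4 (266 CPM against 10.1 to 80.7 in the other 5XFAD females), where Spp1 was at the WT level. The part of these cells in the Spp1 value was not tested.

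**Figure D4:**
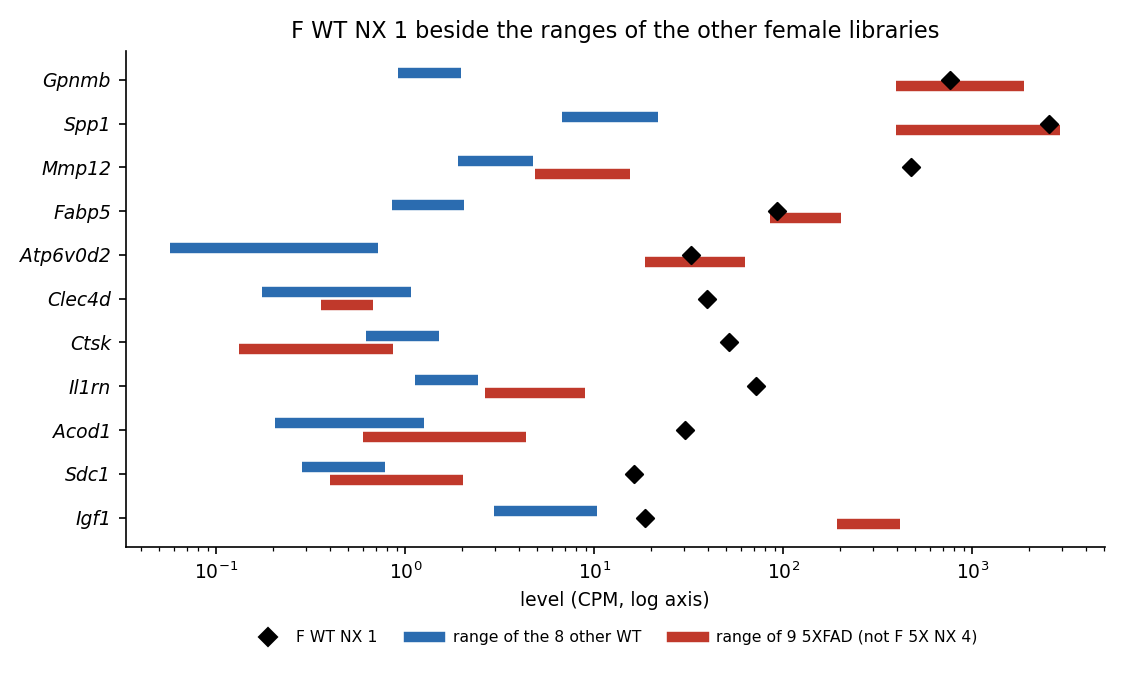
The 10 genes furthest above the other WT females in F WT NX 1, and Igf1, in CPM on a log axis. The diamond is F WT NX 1, blue bars span the 8 other WT females and red bars 9 5XFAD females. Gpnmb, Spp1, Fabp5 and Atp6v0d2 fall in the 5XFAD range, Mmp12, Clec4d, Ctsk, Il1rn, Acod1 and Sdc1 lie to the right of both ranges, and Igf1 (18.7 CPM) lies between them.

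Genes that receive, modify or carry the products of Spp1 and Igf1 were counted from lists of 68 genes written by role. Past both thresholds, 5 of 51 tested were higher and 3 lower in 5XFAD NX females than in WT NX (4.4% and 1.59% of all genes), and 9 and 3 of 52 in CIH females (8.83% and 4.12%). In males it was 7 and 2 of 50 in NX (5.94% and 2.31%) and 12 and 2 of 50 in CIH (11.8% and 6.88%). Of the higher ones, 1 in NX females, 2 in CIH females, 1 in NX males and 3 in CIH males (Ghr in each, with Igfbp6 in CIH mice and Acp5 in CIH males) had fewer than 3 WT libraries above 1 CPM, so they passed the filter only through 5XFAD libraries, where they had to be high. None of the NX female calls held without F WT NX 3 or with the replicate block (0 list genes called in either), which applies to each gene named below as changed in that comparison. The list median log2FC was 0.01, 0.08, 0.13 and -0.11 in these comparisons (-0.02, -0.02, 0.02 and -0.06 over all genes tested). None of the list was called for CIH against NX or for the interaction by edgeR's quasi-likelihood test or DESeq2 (1 gene was, in WT males, by the likelihood ratio test), with 0 to 26 list genes at an unadjusted p below 0.05 per comparison. The 26 of 51 were in WT males, where 5964 of all 14983 genes were below it too. The other bone-matrix relatives of osteopontin (Ibsp, Dmp1, Dspp and Mepe) did not pass the filter on low counts in any comparison.

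Among the osteopontin receptors, Cd44, the hyaluronan receptor, rose in 5XFAD CIH females (22.7 ± 3.26 against 6.34 ± 0.565 CPM, mean ± SD, n = 5 each, log2FC 1.86 ± 0.11, edgeR adjusted p = 2.91e-08) and 5XFAD CIH males (log2FC 1.33 ± 0.15). In NX males its log2FC was 0.95 ± 0.24, and in NX females 0.04 ± 0.67, where F WT NX 1 held 57.5 CPM and the other WT females 5.04 to 9.48. The integrin subunits went in both directions: Itga5 rose by 1.14 to 1.27 in 3 comparisons and was 0.86 ± 0.23 in NX females, while Itga9 fell by 1.40 in CIH females, 1.11 in NX males and 1.30 in CIH males on the log2 scale. Itgav and Itgb1, partners in osteopontin receptors, were not called, with log2FC of -0.98 to -0.36 and -0.12 to 0.16.

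Of the 9 enzymes listed as acting on osteopontin, 1 rose and 1 fell of 5 tested in NX females, 2 and 1 of 6 in CIH females, 2 and 1 of 5 in NX males and 3 and 1 of 5 in CIH males, against the shares of all genes given above (4.4% and 1.59%, 8.83% and 4.12%, 5.94% and 2.31%, 11.8% and 6.88%). Fam20c, the kinase that phosphorylates secreted proteins including osteopontin, rose in all 4 genotype comparisons, from 11.7 ± 2.00 to 186 ± 16.6 CPM in CIH females (log2FC 4.01 ± 0.12) and from 12.7 ± 1.82 to 185 ± 29.4 CPM in NX males (3.87 ± 0.15). It rose by 2.91 ± 0.77 in NX females, a call lost without F WT NX 3 or with the replicate block, where F WT NX 1 held 45.3 CPM and F 5X NX 4 12.05 CPM. Tgm2, the transglutaminase that cross-links osteopontin, fell in all 4, by 1.36 to 1.57 on the log2 scale. Mmp12, which cleaves osteopontin, rose in CIH females and in both male comparisons (log2FC 1.73 to 2.89) but was -3.88 ± 1.45 in NX females (adjusted p = 0.0946), where F WT NX 1 supplied the high WT value. Acp5, a phosphatase of osteoclasts, was called in CIH males (1.85 ± 0.48) and in no other genotype comparison. It is 1 of the 3 enzymes that rose there, and it entered that test only through 5XFAD libraries. In F WT NX 1 Acp5 was 31.5 CPM against 0.232 to 4.40 CPM in the other WT females.

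On the IGF side, the receptor Igf1r was not called in any comparison (log2FC -0.10 to 0.47), and neither was Insr. Of the binding proteins, Igfbp5 rose with Igf1 in all 4 genotype comparisons, from 1.45 ± 0.882 to 35.4 ± 6.23 CPM in CIH females (log2FC 4.60 ± 0.29) and from 1.06 ± 0.433 to 21.1 ± 4.09 CPM in CIH males (4.32 ± 0.26), with 4.12 ± 0.74 and 3.63 ± 0.59 in NX females and males. The NX female call was lost without F WT NX 3 or with the replicate block. Igfbp2 fell in females (by 1.92 in NX and 1.08 in CIH on the log2 scale), and its log2FC in males was -0.28 and -0.55. Igfbp6, which entered the test through 5XFAD libraries, was 0.285 to 0.600 CPM in WT CIH and 0.954 to 2.63 CPM in 5XFAD CIH females, and 0.0493 to 0.976 against 1.05 to 2.79 CPM in males. Socs2, which damps the signal of the growth hormone receptor, rose in all 4 comparisons (log2FC 1.75 to 2.30). For Ghr, that receptor, the log2FC was 2.55 to 3.30, with the limit on its filter given above. Of the kinases and adaptors downstream of IGF1R, Mapk3 and Eif4ebp1 rose in CIH males (1.07 ± 0.11 and 1.27 ± 0.14). Htra1, a protease of IGF binding proteins, fell by 1.85 in NX females, a call likewise lost in those settings, and F WT NX 1 held 7.68 CPM against 0.228 to 6.30 CPM in the other WT females.

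**Figure D5:**
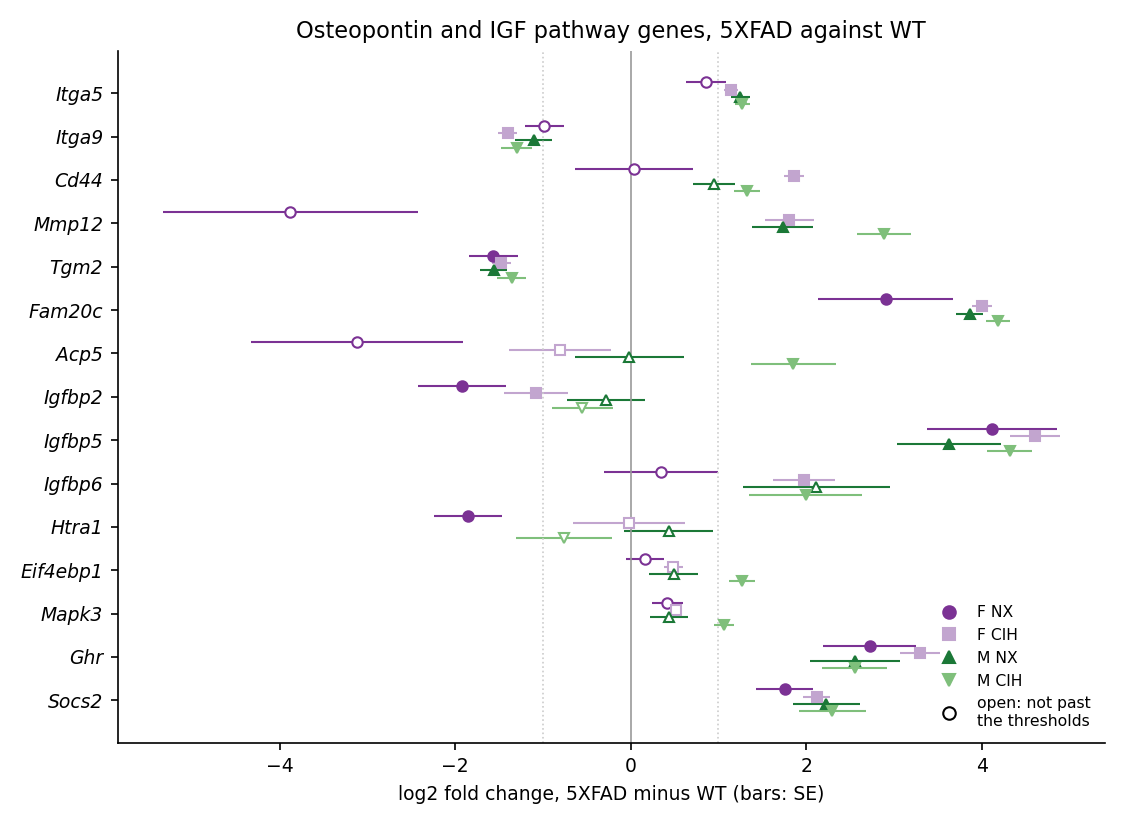
log2FC (5XFAD minus WT, SE bars) in the 4 genotype comparisons for list genes past both thresholds in at least 1 of them. Filled symbols are calls, and dotted lines mark an absolute log2FC of 1. Fam20c, Igfbp5, Ghr and Socs2 lie to the right and Tgm2 to the left in each comparison, and Mmp12 in NX females lies apart from its other values.

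The NX female counts depended on the libraries that stood apart. Without F WT NX 1 and F 5X NX 4, 14 list genes were called in place of 8. Leaving out 1 library at a time gave 0 to 11, with 0 without F WT NX 3, 1 without F 5X NX 5, 2 without F WT NX 4, 3 without F WT NX 2 or F 5X NX 2, 4 without F 5X NX 1 and 5 without F 5X NX 3. In the other genotype comparisons the counts stayed between 9 and 15. Sums of 3 marker lists were lower in 5XFAD beside all these calls, without overlap in either sex (F WT NX 1 and F 5X NX 4 left out). For border macrophage markers, most of whose sum was Stab1, it was 497 to 857 CPM in 9 5XFAD females against 1276 to 1796 CPM in 8 WT females, and 446 to 858 against 1222 to 1837 CPM in males. For dendritic cell markers it was 7.76 to 15.5 against 27.5 to 50.7 CPM in females and 11.3 to 27.1 against 36.5 to 67.7 CPM in males. Microglia markers summed to 24686 to 27855 against 29313 to 33696 CPM in females and 22769.6 to 27438 against 27504 to 35278 CPM in males. The sum of astrocyte markers was higher in 5XFAD females without overlap (223 to 637 against 158 to 221 CPM). It followed Gfap, with group medians of 161 (NX) and 230 CPM (CIH) in 5XFAD and 0.502 and 0.416 CPM in WT. Medians of Slc1a3 (107 and 105 against 150 and 154 CPM) and Gja1 were lower in 5XFAD. The part of these markers in the list counts was not tested.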

How the data were processed

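Microglial RNA of WT and 5XFAD mice after NX or CIH was sequenced on a NovaSeq instrument as paired reads, and the submitters' processing notes name HISAT2 and GRCm38/mm10. The read counter is not given in the sources used here. The deposited tables, 1 per sex, give raw counts per gene, FPKM made by the authors, and gene annotation. The female FPKM values are counts over gene length and library total (r = 1 with the totals), whereas the male FPKM values had been divided by size factors (r = 1 with the size factor and 0.766 with the total). A gene length column in the deposited male table (unit: bases) was used to describe the genes, and female lengths were recovered from counts and FPKM. No column was left unmapped to a library.

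Genes with CPM above 1 in at least 3 samples of a comparison were tested with edgeR 4.0.16 (TMM, quasi-likelihood F test, Benjamini-Hochberg adjustment) in R 4.3.3, for each pair of groups of a table and for the interaction. SEs were taken from the log2FC and its F statistic, and 95% intervals are normal intervals from these SEs, which are narrower than the test itself implies at these sample numbers. CPM levels used TMM over all libraries of a table, and log2 CPM a prior count of 1. Alternatives were the likelihood ratio test, DESeq2 1.42.0, limma 3.58.1 on log2(FPKM + 1) or log2(FPKM + 0.1), other scaling and filters, a replicate block, and leaving out libraries. Exact permutation tests were two-sided, and correlations over 10 libraries used 100000 permutations. The fits were tested on simulated data. Genes were named by these rules: both members, the 5 genes most like each, the 10 genes farthest above and below the other WT females in F WT NX 1, and the list genes past both thresholds, with the main receptors Igf1r, Cd44, Itgav and Itgb1 whether called or not, and markers whose sums moved with a result. Insr was named after its values were seen. Some genes that these rules would name are not reported here, though the counts include them.

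The members and lists were chosen with earlier results of these data known. The labels do not say that libraries came from separate animals, so p-values measure the spread between these libraries. Total counts per library were 13457293 to 25906121, and intervals cover the spread of the fit.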

Additional observations from a re-analysis of the deposited data

Results flagged for a closer look

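In 5XFAD NX females, Igf1 in F 5X NX 4 (3.84 CPM, with the next library at 193 CPM) lay apart from the others of its group, with a gap to the nearest of 0.837 of the range of the group on the log2 CPM scale. On CPM itself the gap was 0.463 of the range, short of the limit (this scale was added after seeing the data). On log2 CPM it was the 1 result so marked among the 16 gene-by-group sets examined, and chance marks about 1 in 20. The 16 include the set of Spp1 in WT NX females, which was not marked and from which no test is drawn. For Spp1 in F WT NX 1, which helped to select the pair, the gap was 0.828 of the range of WT NX females on log2 CPM and 0.995 on CPM, given with no test.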

How the results depend on the processing

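Apart from settings that leave out 1 library, 207 values were kept, 12 moved, 8 turned direction, 1 came to pass the threshold and 1 lost it. With 1 library left out, 258 were kept, 8 moved and 7 turned. CIH, interaction, permutation and correlation values counted as kept if direction and side of the threshold held. Genotype values counted as kept if direction held and they lay within the pooled SD of log2 CPM of the main value. List counts were kept if within a set ratio of the main count. No side of a threshold was checked for the genotype values and list counts. Causes were not tested except where the construction shows them. Spp1 in WT females (CIH minus NX) was -5.97 with no filter, the 1 value that came to pass the threshold, but F WT NX 1 is in it and no test is drawn from it. In 5XFAD females Spp1 turned to 0.058 with library size alone, 0.58 with the replicate block and 1.23 or 1.26 in limma with a pseudocount of 1 or 0.1, and Igf1 to -0.12 without F 5X NX 4. By permutation, Spp1 turned to -43.8 on CPM and -0.11 without F 5X NX 4, and Igf1 to -0.093. The 5XFAD female correlation was 0.502 without F 5X NX 4. The genotype value of Spp1 in NX females was 6.66 without both libraries. Igf1 was 4.55 (CIH females), 3.94 (NX males) and 4.30 (CIH males) in limma with a pseudocount of 1, and 5.15 in CIH males with library size alone. List genes called in NX females were 8, but 0 at an FDR of 0.01, 15 with no fold limit, 0 with the replicate block and 14 without both libraries; with no fold limit the 12, 9 and 14 of the other genotype comparisons became 31, 14 and 32.

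Leaving out 1 library gave CIH values of -6.33 to -0.57 (Spp1) and -1.15 to -0.37 (Igf1) in WT females, -0.35 to 0.48 and -0.12 to 0.40 in 5XFAD females, -0.33 to 0.077 and -0.68 to -0.48 in WT males (Spp1 turned without M WT NX 4), and -0.018 to 0.67 and 0.03 to 0.18 in 5XFAD males (Spp1 turned without M 5X IH 5). The genotype value of Spp1 in NX females ran from 0.51 to 6.35, and the list calls there from 0 to 11. Numbered libraries did not deviate together (correlations of same-numbered libraries -0.34 to 0.35 in females and -0.49 to 0.30 in males). Of the checks, 12 of 54 and 14 of 60 were best with the own number. The libraries were therefore treated as unpaired, although this check cannot show what the numbers stand for. With the replicate block the other genotype comparisons called 11, 9 and 14 list genes. The male interaction had 0 calls over all genes in edgeR's quasi-likelihood test (3857 at an unadjusted p below 0.05), 175 by the likelihood ratio test and 381 in DESeq2. The lowest libraries held 74 counts of Spp1 and 49 of Igf1, both WT, so WT values carry the larger counting error.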
